A study of Mus musculus with 18 samples.

Results

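Genes for Toll-like receptors and their adaptors were examined in open chromatin of mouse liver macrophages (LMs). The 10 genes were the cell-surface receptors *Tlr1*, *Tlr2*, *Tlr4*, *Tlr5*, and *Tlr6*, the endosomal receptors *Tlr3* and *Tlr9*, the adaptors *Myd88* and *Ticam1*, and the co-receptor *Cd14*. An open region was assigned to a gene when its midpoint lay in the gene body or within 10 kb of either end. By this rule, 41 of the 69499 open regions belonged to the 10 genes, of 22367 annotated protein-coding genes in all. The assay was fast-ATAC-Seq, in which a transposase inserts sequencing adapters into accessible DNA, and 18 libraries were made. LMs (Kupffer cells in the sample titles) came from male C57BL/6J mice of 3 genotypes, with 3 replicates each at ZT10 and at ZT22, which count hours after lights on. All mice carried floxed alleles and were fed a high-fat, high-sucrose diet for 4 weeks after injection as adults of an adeno-associated virus. The virus encoded GFP in control mice. In *Reverb*-hDKO mice it encoded CRE, which deletes *Rev-erb*α and *Rev-erb*β, and in *Reverb/Scap*-hTKO mice CRE also deletes *Scap*. The TBG promoter that drove CRE is active in hepatocytes, so the deletions were made in hepatocytes and not in the LMs themselves. Which libraries come from separate animals is not stated in the labels.

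The deposited data analysed here were a single list of regions joined over all libraries, which gives where each region lies and nothing else. Depth and the spread between replicates are therefore unknown. No gene could be compared between genotypes or times, and the statements that follow describe positions and counts of regions without a test. A region in the list need not have been open in every library. The list also cannot tell a region open in many cells from one open in few cells. The cell type was checked on genes typical of macrophages, of which 7 of 12 had an open region within 1 kb of a transcript start, against 57.1% of all protein-coding genes. This share is close to that of all genes, but the starts of the 12 genes were poor in CpG. Their ratio of observed to expected CpG had a median of 0.139 and was below 0.4 at each. Among protein-coding genes with a ratio below 0.4, 22.7% had such an open region. The 7 macrophage genes were *Spi1*, which encodes the macrophage transcription factor PU.1, *Adgre1*, which encodes F4/80, *Clec4f*, *Timd4*, *Cd5l*, *Cd68*, and *Ptprc*. *Csf1r*, *Vsig4*, *Marco*, *Lyz2*, and *Fcgr1* had no such region. Such a region was also present at 7 of 8 hepatocyte genes, 7 of 8 endothelial genes, 2 of 6 stellate cell genes, and 2 of 8 neuron and muscle genes. The hepatocyte and endothelial shares were higher than that of the macrophage genes, so the count does not mark the cells as macrophages. The part of other liver cells in the regions described here was not tested.

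Toll-like receptors recognize molecules shared by many microbes. The cell-surface receptors bind components of the bacterial wall and flagellin, and the endosomal receptors bind nucleic acids after uptake. On binding, the receptors recruit adaptor proteins through their TIR domains. MYD88 serves all of them but TLR3 and leads to activation of NF-κB and AP-1, and TICAM1, also called TRIF, serves TLR3 and TLR4 and leads also to interferon genes through IRF3. Kupffer cells meet bacterial products that reach the liver through the portal vein, and lipopolysaccharide is brought to TLR4 with the help of CD14.

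To show what the open chromatin at these genes consists of, the sequences nearest the starts are given first. All are from the NCBIM37 assembly, which is mm9, and read 5′ to 3′ on the strand of the gene. Capitals mark motif matches on either strand. For *Tlr2*, *Tlr4*, *Tlr5*, *Tlr9*, and *Myd88*, the sequence is the portion of the start region that lies before the first base of the transcript Tlr2-201, Tlr4-001, Tlr5-201, Tlr9-201, or Myd88-001. For *Ticam1*, *Tlr6*, and *Tlr1*, it is the whole region nearest the start, which lay upstream of *Ticam1* and *Tlr6* and downstream of *Tlr1*.
Tlr2 start, chr3:83645690-83645872, minus strand: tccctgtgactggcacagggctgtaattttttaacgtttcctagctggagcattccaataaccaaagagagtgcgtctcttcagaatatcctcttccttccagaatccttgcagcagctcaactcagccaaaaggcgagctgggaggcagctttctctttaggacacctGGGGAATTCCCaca
Tlr4 start, chr4:66488485-66488617, plus strand: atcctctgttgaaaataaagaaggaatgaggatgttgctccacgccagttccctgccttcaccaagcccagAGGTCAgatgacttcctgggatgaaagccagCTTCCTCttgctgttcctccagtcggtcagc
Tlr5 start, chr1:184884882-184884918, plus strand: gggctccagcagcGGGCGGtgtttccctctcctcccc
Tlr9 start, chr9:106124853-106124928, plus strand: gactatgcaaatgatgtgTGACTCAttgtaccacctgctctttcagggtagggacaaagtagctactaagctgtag
Myd88 start, chr9:119249160-119249305, minus strand: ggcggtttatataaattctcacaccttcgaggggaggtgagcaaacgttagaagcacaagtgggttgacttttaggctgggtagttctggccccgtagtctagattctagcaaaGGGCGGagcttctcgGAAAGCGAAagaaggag
Ticam1 start, chr17:56416308-56416512, minus strand: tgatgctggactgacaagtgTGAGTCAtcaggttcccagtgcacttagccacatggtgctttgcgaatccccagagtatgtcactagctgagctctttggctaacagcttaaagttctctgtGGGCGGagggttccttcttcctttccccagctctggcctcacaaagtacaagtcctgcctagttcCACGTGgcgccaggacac
Tlr6 nearest, chr5:65352179-65352329, minus strand: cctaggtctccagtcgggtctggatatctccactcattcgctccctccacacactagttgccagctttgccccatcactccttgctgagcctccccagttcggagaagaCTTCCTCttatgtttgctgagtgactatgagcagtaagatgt
Tlr1 nearest, chr5:65310207-65310357, minus strand: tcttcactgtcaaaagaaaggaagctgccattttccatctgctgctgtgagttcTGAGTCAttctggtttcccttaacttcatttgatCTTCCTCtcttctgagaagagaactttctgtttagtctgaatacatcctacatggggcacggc
In *Tlr2* the capitals mark overlapping kappa-B matches, the kind of site bound by NF-κB, a short distance before the first base. In *Tlr4* they mark AGGTCA, an element bound by nuclear receptors, and a PU.1 match (GAGGAAG, here on the other strand). The start sequences of *Tlr5* and *Myd88* held the SP/KLF match GGGCGG, and that of *Myd88* also an IRF match (GAAANNGAA). The *Tlr9* sequence held the AP-1 match TGACTCA. The *Ticam1* sequence held an AP-1 match, an SP/KLF match, and at its end the E-box CACGTG. The nearest region of *Tlr6* had a PU.1 match, and the only region of *Tlr1* had an AP-1 match and a PU.1 match. The *Tlr3* region overlapped an annotated UTR, and the regions of *Cd14* are not printed.

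Every one of the 10 genes had at least 1 open region in its window, against 74.4% of all protein-coding genes. The order by number of regions was *Ticam1* with 7, *Myd88* with 6, *Tlr2*, *Tlr4*, and *Tlr5* with 5 each, *Cd14* and *Tlr9* with 4 each, *Tlr6* with 3, and *Tlr1* and *Tlr3* with 1 each. At least 4 regions were found at 7 of the 10 genes and at 36.3% of protein-coding genes. The median was 4.5 regions per gene, and over protein-coding genes it was 2, with quartiles of 0 and 5. No count among the 10 genes was extreme, since 86.5% of protein-coding genes had fewer regions than *Ticam1* and 25.6% had fewer than *Tlr1* and *Tlr3*. Because windows differ in length, regions were also counted per 10 kb of window, and the median was then 1.43 for the 10 genes and 0.47 for protein-coding genes. By this measure *Tlr4*, whose window of 122701 bp held 0.407 regions per 10 kb, fell below the protein-coding median. *Tlr1* (0.358) and *Tlr3* (0.286) were below it as well, and *Tlr5* (1.21) came after *Cd14* (1.85) and *Tlr9* (1.65).

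**Figure D1:**
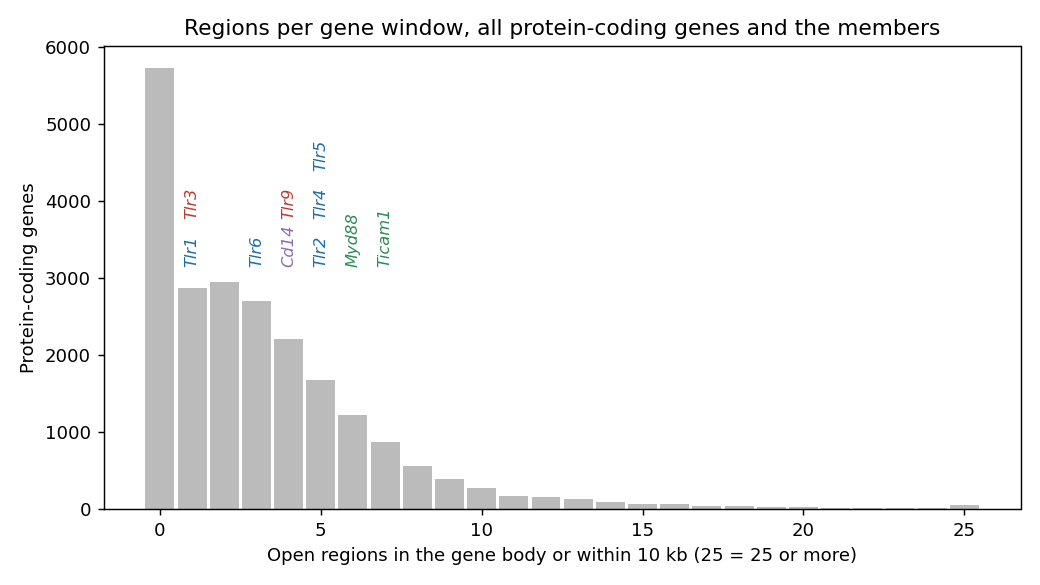
Number of protein-coding genes (vertical axis) by the number of open regions in the gene body or within 10 kb (horizontal axis, with 25 or more in the last bar). Names stand above the bar of their own count, from 1 region for *Tlr1* and *Tlr3* to 7 for *Ticam1*, in blue for cell-surface receptors, red for endosomal receptors, green for adaptors, and purple for *Cd14*, and their height has no meaning.

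An open start, defined as a region within 1 kb of a transcript start, was found at 9 of the 10 genes, *Tlr1* being the exception. The share among protein-coding genes was 57.1%. When the region at the start had to be at least 200 bp wide, 4 of the 10 genes qualified, namely *Tlr2*, *Tlr4*, *Myd88*, and *Ticam1*, against 34.8% of protein-coding genes. *Myd88* qualified by a region that also lay at a start of *Acaa1a*. With regions at another gene's start left out, 3 of the 10 genes qualified, against 25.5% of protein-coding genes. Where the 41 regions lay is drawn in the map of open regions. Many regions had the same width, that of the *Tlr1* and *Tlr6* sequences above, which is called the modal width. Of the 41 regions, 16 lay in a gene body, 15 upstream, and 10 downstream. The regions in gene bodies were in introns in 12 cases and in UTR exons in 4, and 0 had their midpoint in a coding exon of the gene itself.

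**Figure D2:**
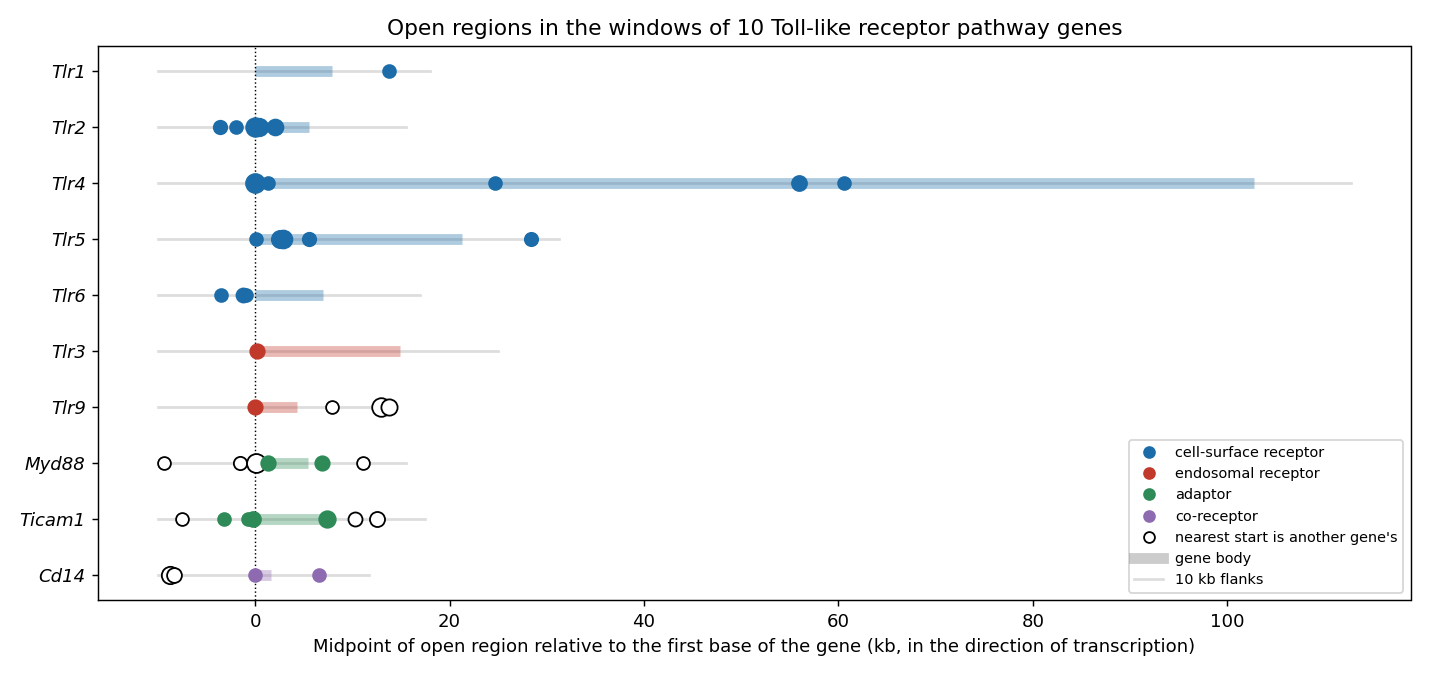
Midpoints of the 41 open regions relative to the first base of each gene, in kb in the direction of transcription, with 1 row per gene. Thick bars are gene bodies, thin gray lines the 10 kb flanks, larger circles wider regions, and open circles regions whose nearest transcript start belongs to another gene, which were seen for *Tlr9*, *Myd88*, *Ticam1*, and *Cd14*.

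Among the cell-surface receptors, *Tlr2* encodes the receptor for bacterial lipoproteins, which works together with TLR1 or TLR6. It lies on chromosome 3 from 83640195 to 83645689 on the minus strand (ENSMUSG00000027995.9). Its start was covered by a region of 319 bp whose midpoint was 24 bp upstream of the first base, and a second region of 282 bp followed in the intron, 370.5 bp downstream. The gap between them was 94 bp. A region of 231 bp lay further in the intron at 2061 bp, and narrower ones lay 1994 and 3652 bp upstream. At 1.96 regions per 10 kb, *Tlr2* had a higher density than 93.5% of protein-coding genes and was the densest of the receptors.

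*Tlr4*, the receptor for lipopolysaccharide, lies on chromosome 4 from 66488618 to 66591318 on the plus strand (ENSMUSG00000039005.7). The widest of the 41 regions, with 330 bp, lay at its start, 2.5 bp from the first base of the transcript Tlr4-004. The other regions were all in introns, at 1290, 24642, 55929, and 60541 bp from the first base of the gene, and that at 55929 bp was 207 bp wide while the others had the modal width. The transcript Tlr4-001 ends at 66503834, so the last 3 of them lie in the gene only by the long transcript Tlr4-004. With the window drawn around Tlr4-001, *Tlr4* had 3 regions and a density of 0.852 per 10 kb. The window held 0 upstream regions, and the next one upstream lay 30617 bp from the gene.

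*Tlr5*, which encodes the flagellin receptor, lies on chromosome 1 from 184884919 to 184906175 on the plus strand (ENSMUSG00000079164.2). The region at its start had the modal width, with its midpoint 38 bp into the UTR exon. The wider regions were in the intron, at 2521 bp (275 bp wide) and 2852 bp (293 bp wide), with 47 bp between them. A further intronic region of 166 bp lay at 5578 bp, and the last, of 163 bp, lay downstream of the gene.

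*Tlr1* and *Tlr6* encode the partners of TLR2 and are neighbors on chromosome 5, both on the minus strand and 20344 bp apart. *Tlr6* (ENSMUSG00000051498.4, 65344345 to 65351287) had 3 regions, all upstream, at 967, 1250, and 3463 bp from its first base, of which that at 1250 bp was 182 bp wide and the others had the modal width. *Tlr1* (ENSMUSG00000044827.6, 65316050 to 65324000) had 1 region, of the modal width, which lay 5768 bp beyond the end of the gene and 13718 bp from its start. Between the *Tlr1* region and the nearest *Tlr6* region, 41821 bp held 0 open regions, and this interval contained both gene bodies. The open start of *Tlr6* rests on the region at 967 bp, close to the limit of 1 kb, and was lost with a limit of 500 bp. Since these genes resemble each other, reads in them could map to more than 1 place. Of the 31-base words within 1 kb of the first base of the gene, 95.2% at *Tlr1* and 100% at *Tlr6* occurred once in the genome. In the gene bodies the shares were 86.5% and 91.3%.

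The 2 endosomal receptors among the 10 genes had different numbers of regions, and each had 1 region at its start. *Tlr3*, which encodes the receptor for viral-type RNA, lies on chromosome 8 from 46481019 to 46495962 on the minus strand (ENSMUSG00000031639.5). Its only region was 192 bp wide, with the midpoint in an intron 164.5 bp from the first base of Tlr3-201 and 233.5 bp from that of Tlr3-202. *Tlr9*, which encodes the receptor for unmethylated CpG DNA, lies on chromosome 9 from 106124929 to 106129207 on the plus strand (ENSMUSG00000045322.9). A region of 191 bp covered its start, with the midpoint 19 bp downstream of the first base in a UTR exon. The other 3 regions were downstream, at 7937, 12980, and 13732 bp from the first base, and for each of them the nearest transcript start was that of *Alas1*, the gene for the rate-limiting enzyme of heme synthesis. The regions at 12980 and 13732 bp lay in an intron of *Alas1*, and the latter was within 1 kb of an *Alas1* start. So *Tlr9* like *Tlr3* had 1 region nearest to its own start.

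Of the 10 genes, the adaptors *Ticam1* and *Myd88* had the most regions. *Ticam1* (ENSMUSG00000047123.8) lies on chromosome 17 from 56408742 to 56416209 on the minus strand. Its nearest region was 205 bp wide and lay 201 bp upstream, and regions of the modal width followed at 760, 3231, and 7483 bp upstream. The regions at 3231 and 7483 bp had their midpoints in coding exons of *Plin3*, which encodes a lipid droplet coat protein. At the other end, a region of 251 bp lay in the UTR exon at 7422 bp, and 2 more lay downstream of the gene at 10261 and 12556 bp, with the nearest start belonging to *Fem1a*. *Myd88* (ENSMUSG00000032508.7) lies on chromosome 9 from 119245052 to 119250529 on the minus strand and has alternative starts. The region of 195 bp at Myd88-001, 49 bp from its first base, was apart from that of 329 bp at Myd88-003, 137 bp from its first base. The latter was also 20 bp from a start of *Acaa1a*, which encodes a peroxisomal thiolase, so that it cannot be assigned to either gene. A region in an *Acaa1a* intron at 1536 bp upstream had 2 E-boxes. The other regions of *Myd88* lay 9410 bp upstream, nearest to a start of *Xylb*, and at 6902 and 11048 bp downstream of the first base, the latter nearest to *Oxsr1*.

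The E-box CACGTG is bound by the clock activators and by other factors of their family, and kappa-B sites are bound by the transcription factors that Toll-like receptors activate. In the central stretch, of the modal width, of regions away from the starts, kappa-B matches were found in 2 regions and E-boxes in 3. Of these, an intergenic region in the *Tlr9* window with kappa-B and the *Acaa1a* intronic region in the *Myd88* window with E-boxes are shown, with all motif matches in capitals. The others lay 3652 bp upstream of *Tlr2* (kappa-B), downstream of *Tlr5* (E-box), and 7483 bp upstream of *Ticam1* (E-box).
Tlr9 downstream, chr9:106132791-106132941, plus strand: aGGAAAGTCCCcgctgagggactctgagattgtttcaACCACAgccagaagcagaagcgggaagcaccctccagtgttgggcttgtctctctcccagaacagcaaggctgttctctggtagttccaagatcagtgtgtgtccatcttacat
Myd88 upstream, chr9:119251984-119252145, minus strand: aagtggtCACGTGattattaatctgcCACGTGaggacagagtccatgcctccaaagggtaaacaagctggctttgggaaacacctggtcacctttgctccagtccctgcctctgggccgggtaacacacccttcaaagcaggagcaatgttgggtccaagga
The *Tlr9* sequence held a kappa-B match and, after it, a RUNX match (TGTGGT on the other strand). In the central stretch, this *Myd88* region was the only member region with more than 1 E-box, and 3 of the 41 regions had any E-box.

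*Cd14* (ENSMUSG00000051439.6), on chromosome 18 from 36884728 to 36886390 on the minus strand, is the shortest of the genes. A region of the modal width lay at its start, with the midpoint 60 bp upstream, and another lay 6527 bp from the first base, downstream of the gene. Its widest regions, of 277 and 202 bp, were 8752 and 8300 bp upstream and lay within 1 kb of a start of the neighboring gene *Tmco6*. Only 2 of its 4 regions were thus nearest to its own start.

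The comparison of the classes turned on how regions near other genes were counted. In the windows, cell-surface receptors had 19 regions at 5 genes, a median of 5 per gene, endosomal receptors had 5 at 2 genes, and adaptors had 13 at 2 genes. Per 10 kb of window the values were 0.778, 0.844, and 2.46, and 1.85 for *Cd14*. With the windows of *Tlr4* and *Myd88* drawn around Tlr4-001 and Myd88-001, they were 1.08 for cell-surface receptors and 2.33 for adaptors, so that cell-surface receptors then came out above endosomal receptors. When a region counted only for the gene of the nearest start, cell-surface receptors kept all 19 regions, while endosomal receptors kept 2 and adaptors 6. The median per gene was then 5 for cell-surface receptors and 3 for adaptors, and 1 for endosomal receptors. Over protein-coding genes the median was 1 by nearest start and 2 in the windows. The adaptors thus led by count in the windows and the cell-surface receptors led by count when each region was given to its nearest start. Per 10 kb, the nearest-start values were 1.13 for adaptors, 0.778 for cell-surface receptors, and 0.338 for endosomal receptors. The order of the first and the second rested on the long window of *Tlr4*, since without *Tlr4* the cell-surface receptors had 1.15. Taken singly, *Tlr2* had 1.96 by nearest start, above *Ticam1* (1.46) and *Myd88* (0.785). The classes are small, and their ranges were wide. In the windows, cell-surface receptors had between 1 and 5 regions and endosomal receptors 1 and 4. The adaptors *Myd88* and *Ticam1*, with 6 and 7, lay above every receptor among the 10 genes. By nearest start the adaptors, with 2 and 4, lay within the range of the cell-surface receptors.

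**Figure D3:**
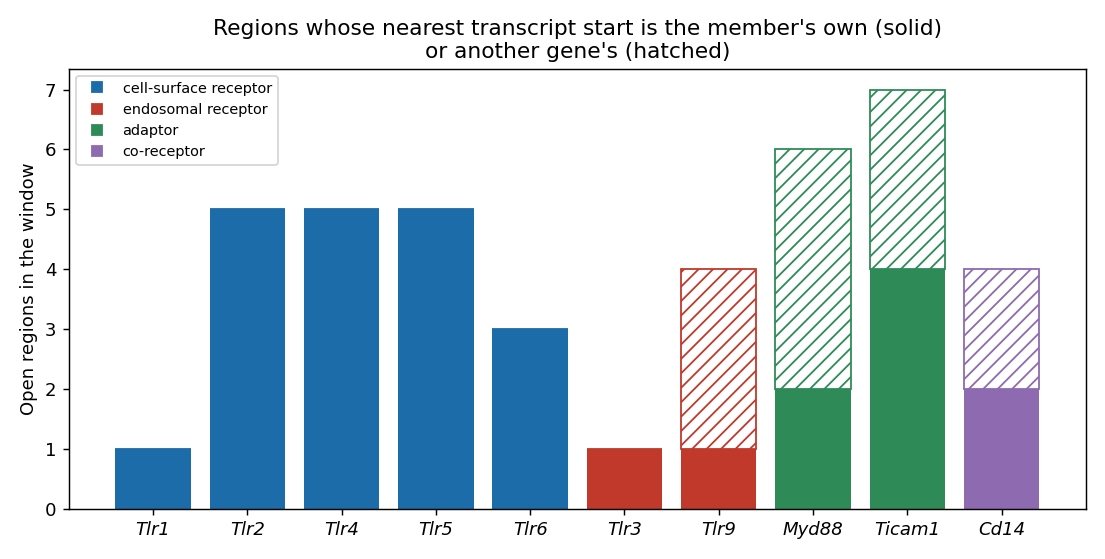
Number of open regions in the window of each gene (vertical axis), with regions whose nearest transcript start is the gene's own as solid bars and those nearest to another gene's start as hatched bars. The 19 regions of cell-surface receptors are all solid, and 4 of the 6 regions of *Myd88* and 3 of the 4 of *Tlr9* are hatched.

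Starts rich in CpG are open in many cell types, so the composition of the starts was examined in the 1001 bp around the first base of each gene. The ratio of observed to expected CpG had a median of 0.383 over the 10 genes and of 0.549 over protein-coding genes. It was lowest at *Tlr9* (0.168) and highest at *Myd88* (0.749) and *Tlr6* (0.713), while *Ticam1* had 0.314, *Tlr3* 0.351, and *Tlr4* 0.28. The start of *Tlr6* combined this ratio with a GC content of 39.7%, lower than at all but 7.91% of protein-coding genes, so that few C and G bases stand behind its ratio. The ratio of *Myd88* was taken at its most upstream start, where the open region also lay at a start of *Acaa1a*. The other starts of *Myd88* lay outside the 1001 bp, so the ratio does not describe them. Among protein-coding genes with a ratio below 0.4, 22.7% had an open start, and the share was 58.7% from 0.4 to 0.6 and 86.8% above. Of the 7 members below 0.4, 6 had an open start, the exception being *Tlr1* (0.371). *Tlr2*, in the middle range, and *Tlr6* and *Myd88*, in the upper range, had one as well, with *Myd88* placed there by its most upstream start only.

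**Figure D4:**
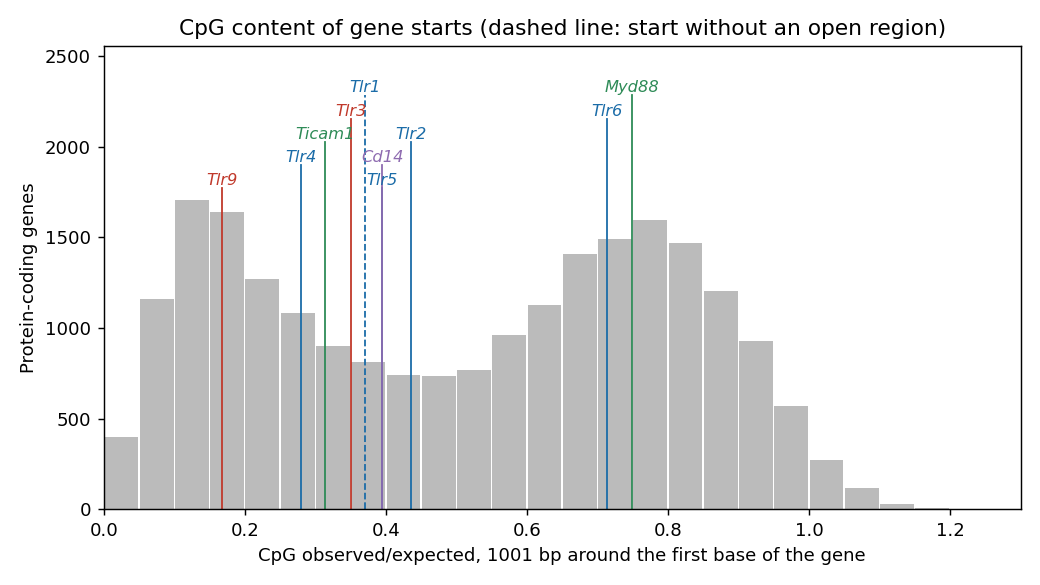
Number of protein-coding genes (vertical axis) by the ratio of observed to expected CpG around the first base of the gene (horizontal axis). Vertical lines mark the 10 genes in the colors of their classes, solid for an open start and dashed for *Tlr1*, and *Tlr5* and *Cd14* share the line at 0.395.

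The width of a region depends on the peak caller, which is not named. Of the 41 regions, 16 had the modal width, as had 32345 regions of the whole list, the median was 181 bp, and the widest was 330 bp. Over the whole list the median was 160 bp. At least 200 bp was reached by 36.6% of the 41 regions and by 30.7% of all regions. Of the 13 regions at a start of the gene itself, 5 were at least 200 bp wide. All 3 regions at a start of another gene only reached this width, and of the 25 away from any start, 7 did. The shares over the whole list were 41.3% at starts of any gene and 26% away from them. The counterpart of the 41.3% is thus the 13 and the 3 regions joined, not the 13 alone. The widest regions at own starts were those of *Tlr4*, *Myd88*, and *Tlr2*, while the start regions of *Tlr5*, *Tlr6*, and *Cd14* were at the modal width. The *Myd88* region meant, of 329 bp, is among the 5 wide ones and also lay at a start of *Acaa1a*, so it cannot be assigned to either gene. The region at Myd88-001 was 195 bp wide.

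Motifs were counted on both strands in a central stretch of the modal width, and 30 of the 41 regions had at least 1 of 12 motifs. A PU.1 match (GAGGAAG) was present in 7 regions of 6 genes, or 17.1%, against 9.91% of all regions. Of these, 5 were at cell-surface receptors, including the start region of *Tlr4* and the nearest region of *Tlr6*, and the others were at the start of *Tlr9* and downstream of *Myd88*. An AP-1 match (TGANTCA) was present in 6 regions, each at a different gene, or 14.6%, against 7.17%. The genes were *Tlr1*, *Tlr4*, *Tlr5*, *Tlr6*, *Ticam1*, and *Cd14*. The 2 AP-1 matches shown above for the starts of *Tlr9* and *Ticam1* lie across the edge of the central part or outside it, and are not among them. Likewise not counted were the AGGTCA of the *Tlr4* start and the E-box of the *Ticam1* start shown above, which lie outside the central part. Kappa-B matches were found in 3 regions, or 7.32% against 2.41%, of which 2 were in the *Tlr2* window and 1 in the *Tlr9* window. IRF matches (GAAANNGAA) were found in 3 regions, or 7.32% against 4.21%, at *Myd88*, *Ticam1*, and the *Alas1* start in the *Tlr9* window. Of the 19 regions of cell-surface receptors, 0 had one. With a share of 4.21% over all regions, 19 regions are too few to set the classes apart by this motif.

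SP/KLF matches (GGGCGG) were the most frequent, in 9 regions, of which 8 were among the 16 regions at a start of any gene. Over the whole list, 37.2% of regions at starts and 5.55% of regions away from them had this match. Lower shares than in the whole list were found for AGGTCA, with 9.76% against 15.8%, for C/EBP matches (TTGCNNAA), with 4.88% against 8.82%, and for RUNX matches, with 9.76% against 11.9%. E-boxes were present in 7.32% and 5.01%, and D-box matches (TTATGNAA) in 4.88% and 2.31%. In whole regions E-boxes were found in 6 of the 41, or 14.6%, against 6.08%. The cAMP response element TGACGTCA and the sterol element TCACNCCAC were found in 0 of the 41 regions, against 0.977% and 0.717% of all regions. None of the motifs contains another, although neighboring matches can share letters. With counts this small, each match moves a share by several percentage points. In a central stretch about as long as the widest of the 41 regions, IRF matches were less frequent in the 41 regions than in all regions (7.32% against 8.54%) and C/EBP matches more frequent (17.1% against 15%), the opposite of the shorter stretch, and RUNX matches also changed sides, with 22% against 21.1%. PU.1, AP-1, and kappa-B matches stayed more frequent in the member regions in the longer stretch and in whole regions. So did E-box, D-box, and SP/KLF matches. The median GC content was 52.3% for the 41 regions and 53% for all.

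**Figure D5:**
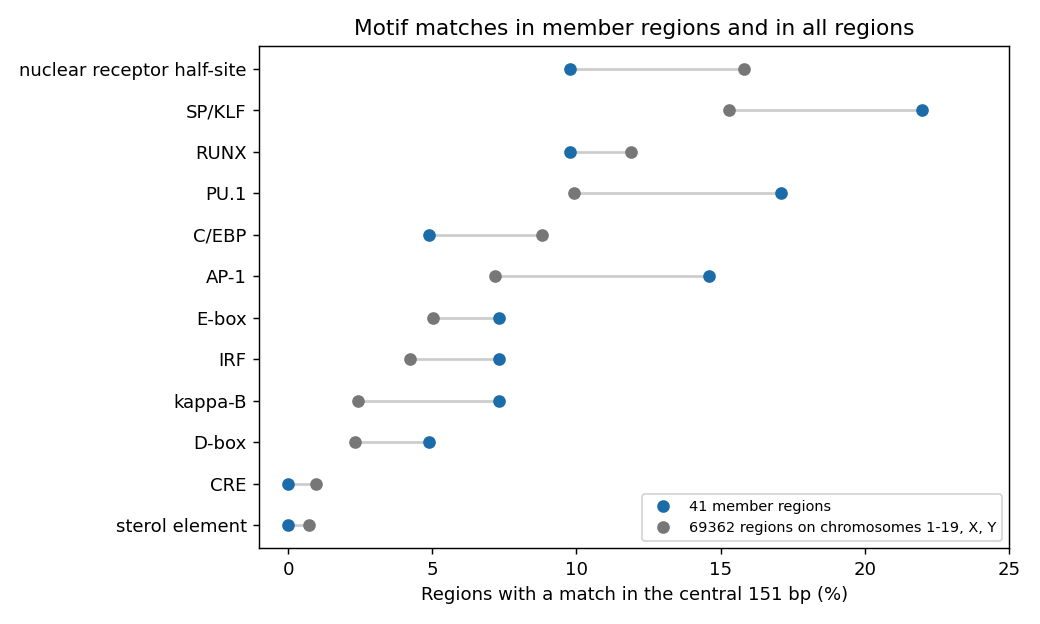
Share of regions with a match in the central stretch (horizontal axis, in percent) for each of 12 motifs, in blue for the 41 regions and in gray for the 69362 regions on chromosomes 1 to 19, X, and Y. Blue points lie to the right of gray points for PU.1 (17.1% and 9.91%), AP-1 (14.6% and 7.17%), and kappa-B (7.32% and 2.41%). The same holds for IRF (7.32% and 4.21%), E-box (7.32% and 5.01%), D-box (4.88% and 2.31%), and SP/KLF (22% and 15.3%). For the remaining motifs blue points lie to the left.

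Further genes of the pathway were taken from a list of 46. An open start was found at 41 of them, or 89.1%, and their median was 4 regions. The share was 57.1% over all protein-coding genes and 86.8% over those with a CpG ratio of at least 0.6 at the start. The genes that act after the adaptors all had one, with 16 of 16 kinases and ligases, 7 of 7 transcription factors, and 6 of 6 inhibitors, and these starts were richer in CpG, with median ratios of 0.802, 0.786, and 0.684, in the range where most protein-coding genes had an open start. *Irak2*, a kinase recruited by MYD88, had 19 regions and *Ikbke* 10, while *Nfkb1* had 11 and *Irf5* 9. Of the inhibitors, *Nfkbia*, which holds NF-κB in the cytoplasm, had 7 regions and *Sigirr* 6. The other adaptors had an open start in 4 of 4 cases, with 18 regions at *Pik3ap1*, 7 at *Sarm1*, 2 at *Ticam2*, and 1 at *Tirap*. High counts as at *Myd88* and *Ticam1* were thus not seen at all adaptors. Chaperones that carry receptors to the endosome or the cell surface had an open start in 3 of 3 cases, among them *Unc93b1* with 9 regions and *Cnpy3* with 8. Of the genes for ligand binding, *Cd36* had 7 regions and *Cd180* 6, and *Cd180* was the only one of 5 without an open start, with the nearest region 2104 bp away.

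The 5 other receptors on the list were not counted in either receptor class above, so the class values do not cover all Toll-like receptors. Of these 5, only *Tlr12* had an open start. *Tlr7*, *Tlr8*, *Tlr11*, and *Tlr13* had none, and the nearest region lay 14409, 51705, 2679, and 43814 bp from a transcript start. *Tlr8* and *Tlr13* had 0 regions in their windows, and *Tlr7* and *Tlr11* had 1 each. With these 5, the ratio of observed to expected CpG at the start lay between 0.121 and 0.253, in the range where 22.7% of protein-coding genes had an open start. *Tlr7*, *Tlr8*, and *Tlr13* are on the X chromosome, while *Tlr11*, also without an open start, is on chromosome 14 and *Tlr12* on chromosome 4.

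The counts depend on where a start and a window end. RefSeq promoter sequences (GRCm38.p6) were available for 8 of the 10 genes. All 10 of these sequences were found once in the stretch of NCBIM37 around their gene, the only part searched. By RefSeq starts, 7 of the 8 genes had an open start, *Tlr1* again being without one at either of its starts, with the nearest region at 13656 or 14515 bp. The RefSeq start of *Tlr3* was 5.5 bp from the midpoint of its region, closer than either GENCODE start. *Tlr6* had an open start at 1 of its 2 RefSeq starts, since the other lay 1849 bp from the nearest region. At the edges of the windows, the outermost regions inside were those of *Tlr9* at 9454 bp and *Myd88* at 9410 bp from the gene, and the nearest outside were those of *Tlr6* at 10051 bp, *Tlr9* at 10456 bp, and *Myd88* at 10914 bp. In 39 of the 41 regions every 31-base word was unique in the genome, and in the other 2, at *Myd88* and *Ticam1*, 82.6% and 83.5% were.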

How the data were processed

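Fast-ATAC-Seq of LMs was described for 18 libraries in 6 groups of 3. Per the labels and the study's methods, the authors ran the ATAC-Seq pipeline of the Kundaje laboratory, trimmed adapters, aligned reads to mm9 with Bowtie, pooled the alignments of replicates before peak calling, and named HOMER for read counts. The peak caller within that pipeline, its threshold, and tool versions are not given in the sources used here. The deposited file is a list of region coordinates counted from 0 (given here from 1), with no count, signal, or score.

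Regions were placed on GENCODE vM1 genes of NCBIM37 by their midpoints. A start was open when any part of a region lay within 1000 bp of a transcript start. Wide regions were at least 200 bp. CpG ratios used 1001 bp around the first base of a gene. Motifs were searched on both strands in a central stretch of the most frequent region width, and palindromes were counted once. Window counting and motif search were tested on simulated regions with known answers. Python 3.11.15, pysam 0.24.0, NumPy 2.4.6, and matplotlib 3.10.9 were used.

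Members, gene lists, and motifs were chosen with earlier results of these data known. Named are the 10 members, genes with a start within 1 kb of a member region, and of the pathway list those without an open start and the 2 of each group with the most regions. *Plin3*, *Xylb*, *Oxsr1*, *Fem1a*, *Tlr12*, the macrophage genes, and the start sequences that end before the first base of a transcript were chosen after their values were seen. The same holds for *Tirap* and *Ticam2*. No test was run, since the list holds no measured value for any region or library.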

Additional observations from a re-analysis of the deposited data

How the results depend on the processing

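The number of regions at the 10 genes was 41, and it was 16 when regions had to lie in the gene body, 63 within 20 kb, and 15 when regions had to be at least 200 bp wide. With 5 kb it was 31, with any overlap with the window 42, with regions at most 500 bp apart joined 35, without regions at the start of another gene 37, and with regions counted only for the gene of the nearest start 29. With windows from Tlr4-001 and Myd88-001, an alternative chosen after seeing the data, it was 38. The RefSeq starts were also added after seeing the data. Open starts were found at 9 genes, at 8 within 500 bp, at 9 within 2000 bp, at 9 around the first base of the gene only, at 4 when the region had to be at least 200 bp wide, and at 3 when it also had to lie at no other gene's start, which was added after seeing the data. No paired analysis was possible because no library has values of its own, and for the same reason leaving out replicates was not run. Depth is unknown, so a gene without a region may lack one for want of reads, which was not tested.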
